A study of Homo sapiens with 96 samples.

Results

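Interferon-stimulated genes were followed as a listed family of 39 genes that interferon signalling induces, together with interferon regulatory factors that act on them. The family was listed by name, and each gene was read from 1 Affymetrix probe set, chosen among several as the one brightest on average across the arrays of the HaCaT constructs. A probe set with 1 gene symbol was found for 38 of the 39, out of 19775 genes measured in the whole series. STAT2 had none and was left out. The 38 members fall into 3 transcription factors, 2 sensors of viral RNA, 5 genes grouped under ISG15 conjugation and 28 antiviral effectors and other induced genes. All values are log2 expression on the scale deposited, so a difference of 1 is a doubling, and a member is called higher or lower where the limma adjusted p over all 19775 genes is under 0.05.

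Cells sense viral nucleic acid and secrete interferons, which bind receptors on the cell surface and switch on JAK kinases and STAT transcription factors. A STAT complex that includes IRF9 then binds the interferon-stimulated response element in the promoters of interferon-stimulated genes, while IRF1 and IRF7 bind related sites. Keratinocytes keep some of these genes on without infection, and epidermal growth factor receptor (EGFR) signalling through RAS and ERK is one of the pathways known to restrain them.

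The study used HaCaT, a spontaneously immortalized and non-tumorigenic human keratinocyte line, carrying a lentiviral vector with a CMV promoter and puromycin selection. The vector held EGFR in HaCaT-EGFR cells, a mutant HRAS in HaCaT-HRAS, a mutant PIK3CA in HaCaT-PIK3CA and no such insert in HaCaT-Mock, so every construct line has also passed through transduction and selection, and each construct is represented by 1 line. Cells received PBS (3 arrays a line, 2 in HaCaT-EGFR), 10 nM afatinib, 100 nM gefitinib or 100 nM cetuximab (3 arrays each, 2 for gefitinib in HaCaT-PIK3CA), siRNA to EGFR (siEGFR) or a scramble siRNA (3 arrays each), or scramble siRNA together with PBS (2 arrays a line, but 1 for HaCaT-Mock) or together with an inhibitor (1 array each). Afatinib and gefitinib are small molecules that block the EGFR kinase, and cetuximab is an antibody that binds the receptor outside the cell. Untreated head and neck carcinoma lines SCC1 and SCC25 had 2 arrays each, and FaDu, FaDu with PBS and parental HaCaT had 1 each, for 96 arrays in all. Where nothing in the labels says that replicates came from separate cultures, p-values measure only the spread between these arrays. The arrays carry a batch letter (J with 53 arrays, M with 26, E with 16, P with 1), and batch was a term of each model.

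A pair of arrays stood against their labels for the members. In HaCaT-PIK3CA, the array labelled afatinib replicate 1 had a mean over the 38 members of 6.77, inside the 6.75 to 6.96 of that line's PBS arrays, whereas the other afatinib arrays were at 7.73 and 7.65. DUSP6, a phosphatase whose transcription follows ERK activity, was 9.57 on that array against 8.16 and 7.73 on the other afatinib arrays. In HaCaT-Mock, the only array labelled scramble with PBS had a member mean of 7.73, against 6.92 to 7.04 with PBS and 7.56 to 7.77 with scramble and an inhibitor, and its DUSP6 value of 8.13 lay below the 9.49 to 10.18 of the PBS arrays. Both arrays are kept under their labels, and counts that move by over 1.5 times without them are given beside the result. Apart from these, HaCaT-HRAS gefitinib replicates 2 and 1 had the lowest array weights in limma (0.0200 and 0.0578).

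The labels were checked on further genes. EGFR fell by 1.92 with siEGFR over the 4 lines (SE 0.05, adjusted p = 8.13e-37). The probe sets for EGFR and HRAS were not higher in the lines that carry those constructs (differences from HaCaT-Mock under PBS of -0.00 ± 0.11 SE and -0.22 ± 0.10 SE, adjusted p = 0.998 and 0.152), and whether they lie within the construct transcripts was not determined here. The EGFR values come from 1 of its 9 probe sets. By RT-PCR, the paper reports overexpression of both mRNAs in their construct lines relative to HaCaT-Mock. The keratinocyte markers KRT5, KRT14 and CDH3 had mean signals of 11.2 to 12.6 over the HaCaT construct arrays and all 3 rose with inhibitors over the 4 lines (KRT5 by 1.06). Markers of other cell types were dimmer, with means of 3.61 to 5.27 for 6 leukocyte markers, 3.59 to 5.52 for 3 plasmacytoid dendritic cell markers, 4.26 to 5.76 for 3 endothelial markers and 3.78 to 7.25 for 6 fibroblast markers. Of these, ITGAM (-0.17) and COL1A1 (-0.11) were lower with inhibitors, and VWF (0.71), CDH5 (0.60), COL3A1 (0.49) and DCN (0.20) were higher. Their part in the members' changes was not tested. In these bulk RNA samples a change in level per cell cannot be told apart from a change in the share of cells that express a gene.

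Promoters show which members carry the response element in the sequence next to a listed start. Only the first listed promoter of a gene was read. For DDX60, ISG20, IFI27 and XAF1 that window lay wholly inside the gene's annotated span, so another start lies further upstream. RefSeq promoters of 300 bases (250 before and 50 after the start, GRCh38.p14) were matched to 31 of the 38 members. The element was searched as a pair of GAAA copies with 2 free bases between them, or a pair of TTTC copies on the opposite strand, and was present in 19 members (61.3%) against 3.57% of 35116 promoters. TTCNNNGAA, the site bound by STAT dimers, which reads the same on both strands and may overlap the first motif, was present in 9 members (29.0%) against 7.66% of all promoters. The 60-base stretches listed here were taken only from members with a match, and are shown because their genes mark the main patterns. They are printed 5′ to 3′ along the gene, with matches in capitals. IFIT3 (chr10:89327816-89327875, plus strand) and EPSTI1 (chr13:42992257-42992316, minus) rose with inhibitors in every line. HERC5 (chr4:88456969-88457028, plus), ISG15 (chr1:1013359-1013418, plus) and DDX60 (chr4:168318806-168318865, minus) were lower in HaCaT-HRAS. BST2 (chr19:17405726-17405785, minus) and ISG20 (chr15:88638922-88638981, plus) were called in no line with inhibitors. IFI44L (chr1:78620259-78620318, plus) was far higher in SCC25.
IFIT3: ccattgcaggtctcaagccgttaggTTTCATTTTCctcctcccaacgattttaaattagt
EPSTI1: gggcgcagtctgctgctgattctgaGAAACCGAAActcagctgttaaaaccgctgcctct
HERC5: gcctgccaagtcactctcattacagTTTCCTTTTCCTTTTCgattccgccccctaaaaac
ISG15: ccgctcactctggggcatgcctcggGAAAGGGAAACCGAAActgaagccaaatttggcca
DDX60: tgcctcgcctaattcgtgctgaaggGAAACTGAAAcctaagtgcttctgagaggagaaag
BST2: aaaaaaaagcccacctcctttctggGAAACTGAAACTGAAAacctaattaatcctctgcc
ISG20: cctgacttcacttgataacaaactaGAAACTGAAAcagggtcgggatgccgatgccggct
IFI44L: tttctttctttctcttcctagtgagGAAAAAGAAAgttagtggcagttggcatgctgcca

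All 8 stretches hold the element because they were picked for it, and their genes behaved differently. BST2 had a mean signal of 4.95 over the HaCaT construct arrays, as low as leukocyte markers, so its lack of a call may be lack of detection. Over the 4 lines, the inhibitor difference of IFIT3 was 1.58 and that of ISG20 -0.10. The median inhibitor difference was 0.37 for the 19 members with the element and 0.95 for the 12 without it in this window, and the corresponding medians for HaCaT-HRAS against HaCaT-Mock were -0.33 and -0.29. SAMD9L, XAF1, CMPK2, IRF1 and IRF9, which were among the members with the largest inhibitor differences, had no match to these letters in the window. Absence from this window says nothing of other sites.

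EGFR inhibition raised most members. With the 3 inhibitors averaged and set against PBS over the 4 lines, 34 of 38 members were higher and none was lower, with a median difference of 0.48, while 19.8% of all genes were higher and 19.4% lower. The transcription factors rose in 3 of 3 cases, the ISG15 conjugation genes in 5 of 5, the RNA sensors in 1 of 2 and the effectors in 25 of 28. RIGI, an RNA sensor (0.06 ± 0.03 SE, adjusted p = 0.141), MX2, an antiviral GTPase (0.03), BST2, which tethers budding virus (0.04), and ISG20, an RNA exonuclease (-0.10 ± 0.06 SE, adjusted p = 0.183), did not pass the test. MX2 and BST2 had mean signals as low as those of leukocyte markers, so their lack of a call may be lack of detection. In batch J alone, whose arrays are also part of the fit above, 37 of 38 differences were positive. The share of all genes with a positive difference there was not determined.

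**Figure D1:**
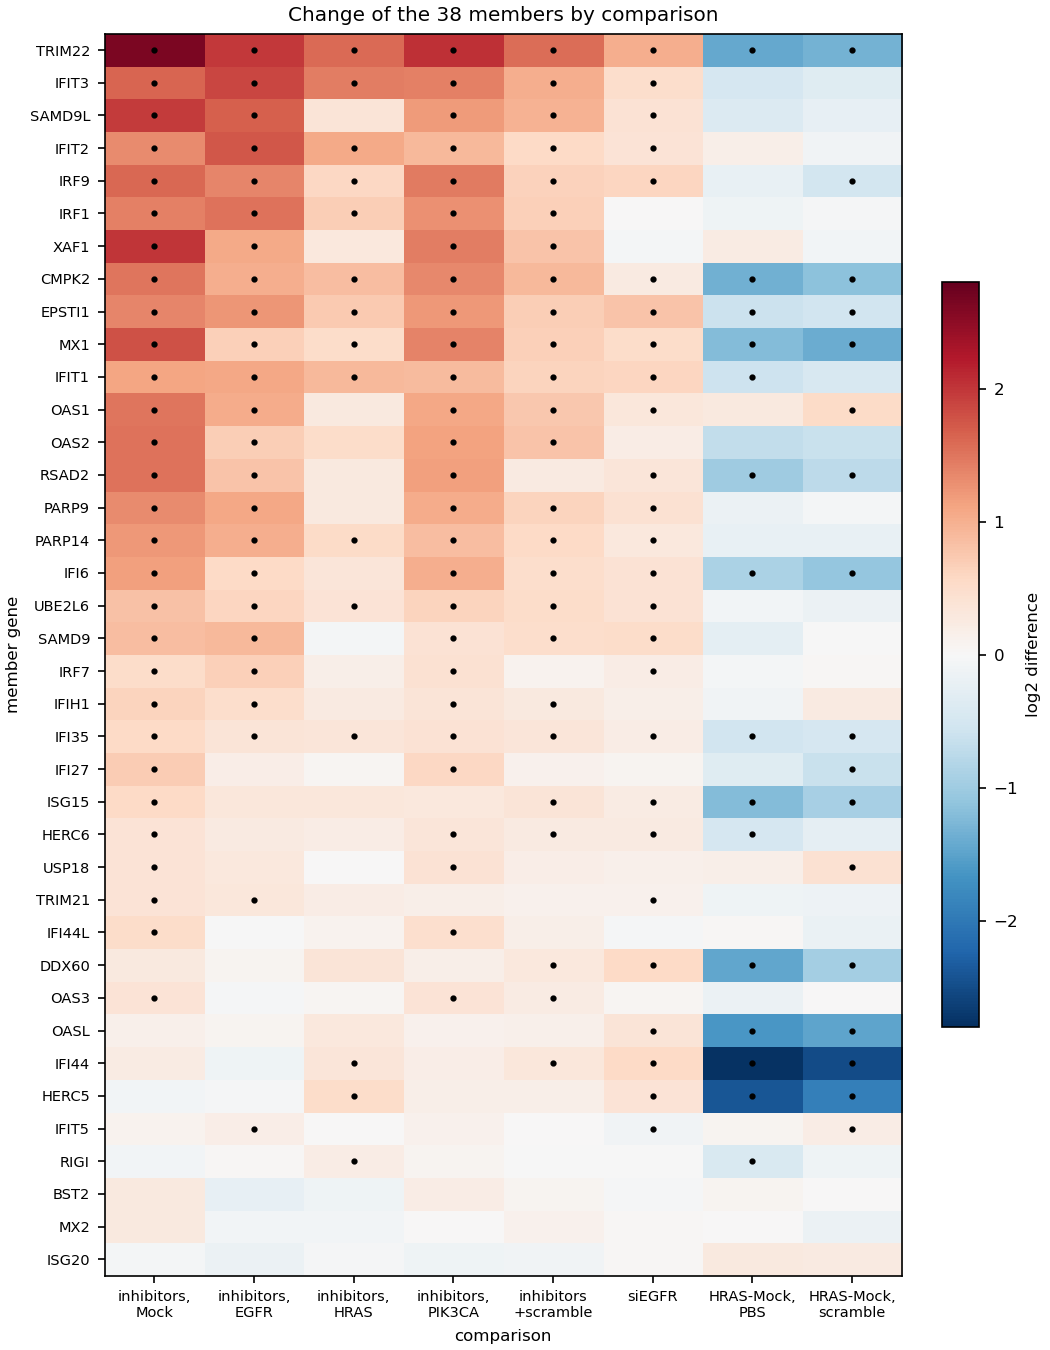
Log2 differences of the 38 members (vertical axis, ordered by the inhibitor difference over the 4 lines) in 8 comparisons (horizontal axis), coloured from lower (blue) to higher (red), with a dot where the limma adjusted p is under 0.05. The first 4 columns are mainly red with fewer dots in HaCaT-HRAS, and the last 2 columns, HaCaT-HRAS against HaCaT-Mock, are mainly blue with IFI44 and HERC5 the darkest.

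TRIM22, a tripartite motif protein that restricts retroviruses and other viruses, had the largest inhibitor difference of the members. In HaCaT-Mock its PBS values were 6.47, 6.29 and 6.37, its afatinib values 9.43, 9.07 and 9.42, its gefitinib values 9.19, 8.75 and 9.25, and its cetuximab values 8.76, 8.29 and 8.63. Every inhibitor array lay above every PBS array, by a fitted difference of 2.63 ± 0.23 SE, or 6.18-fold (limma adjusted p = 1.16e-13). In HaCaT-EGFR, PBS values were 7.05 and 7.34 and the 9 inhibitor values ran from 8.73 to 9.40, again without overlap (difference 1.98 ± 0.27 SE). In HaCaT-HRAS, where TRIM22 started at 4.97, 5.15 and 4.87, it reached 5.68 to 7.14 (difference 1.58 ± 0.23 SE), above its own PBS arrays but below every inhibitor array of the other lines except the doubted one. In HaCaT-PIK3CA, PBS values were 6.57, 6.43 and 5.99, and the inhibitor arrays ran from 8.29 to 8.85 apart from the doubted afatinib array at 6.38 (difference 2.04 ± 0.23 SE, or 2.32 without that array). Over the 4 lines the difference was 2.06 ± 0.12 SE, 4.16-fold (adjusted p = 8.46e-21).

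The 3 transcription factors rose as well. IRF9, the DNA-binding part of the STAT complex, had PBS values of 7.34, 7.02 and 7.44 in HaCaT-Mock and inhibitor values of 8.67 to 9.41, a difference of 1.60 ± 0.15 SE. In HaCaT-HRAS its PBS values of 7.13, 7.19 and 7.13 were like those of HaCaT-Mock, but its inhibitor values reached only 7.29 to 8.02, a difference of 0.58 ± 0.14 SE (adjusted p = 0.00797). IRF1, which binds similar elements, rose by 1.23 ± 0.07 SE over the 4 lines (adjusted p = 1.56e-21), from 7.64, 7.53 and 7.84 to 8.60 to 9.77 in HaCaT-Mock. IRF7, which drives interferon genes, rose by 0.44 ± 0.06 SE.

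Among the effectors, IFIT3, a member of the IFIT family of proteins that bind viral RNA, rose by 1.58 ± 0.10 SE over the 4 lines. Its HaCaT-Mock PBS values of 9.80, 9.85 and 9.42 gave way to 10.72 to 11.64 with inhibitors, and its HaCaT-HRAS values of 9.36, 9.35 and 9.32 to 10.47 to 10.97. The differences were 1.63 ± 0.19 SE and 1.42 ± 0.19 SE, so IFIT3 was among the members for which the HaCaT-HRAS response was not called smaller. IFIT2 rose by 1.26, SAMD9L, which limits viral translation, by 1.30, XAF1, a pro-apoptotic factor, by 1.20, the nucleotide kinase CMPK2 by 1.18, EPSTI1 by 1.14 and the antiviral GTPase MX1 by 1.08. Of the genes grouped under ISG15 conjugation, the conjugating enzyme UBE2L6 rose by 0.60 and the modifier ISG15 itself by 0.37. HERC6 rose by 0.30, the ligase HERC5 by 0.14 and the deconjugating enzyme USP18 by 0.28.

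**Figure D2:**
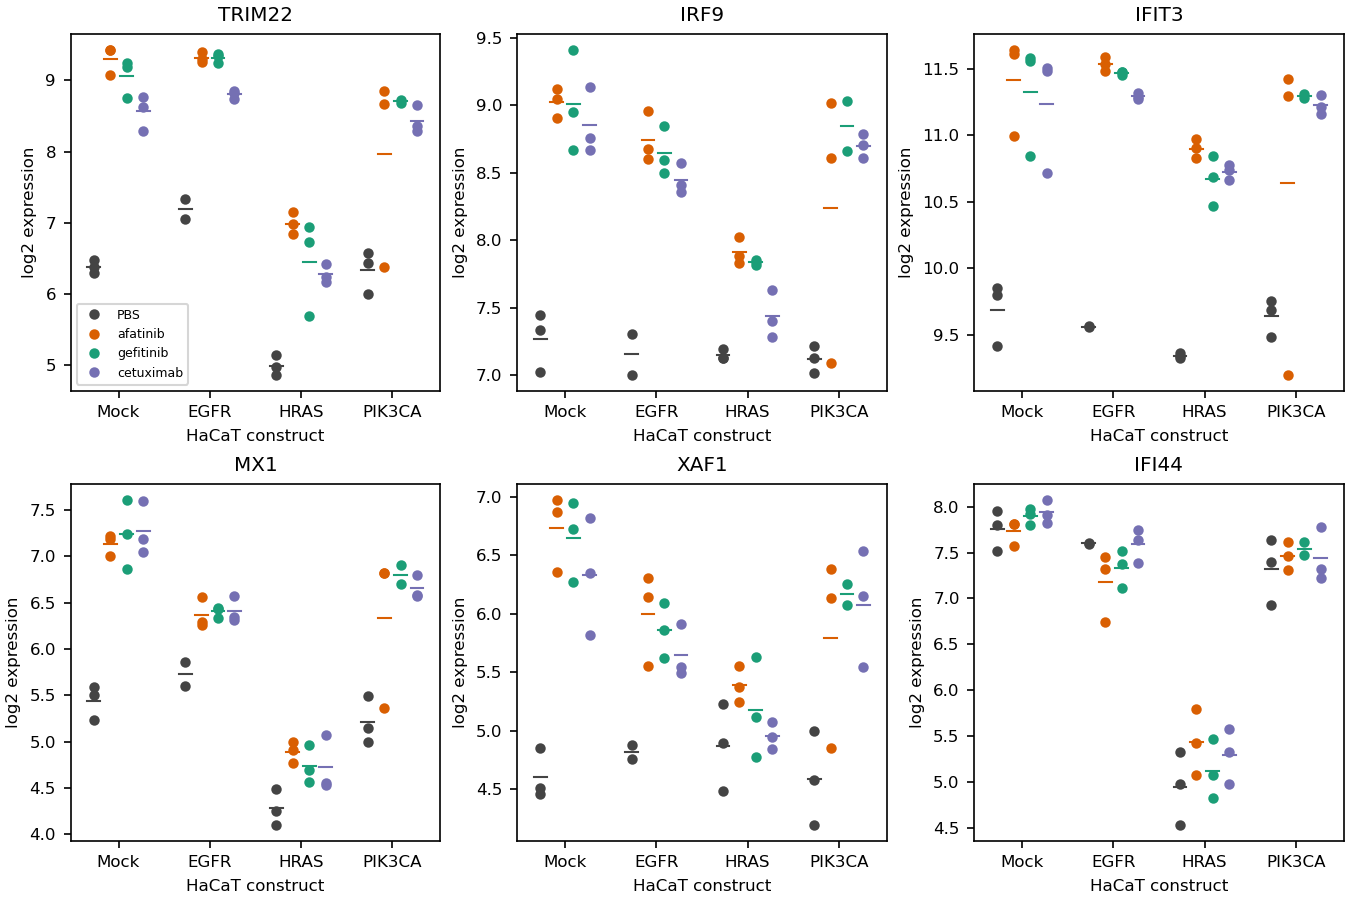
Log2 expression (vertical axes) of TRIM22, IRF9, IFIT3, MX1, XAF1 and IFI44 on each PBS and inhibitor array of the 4 HaCaT constructs (horizontal axes), 1 point per array with a bar at each group mean. TRIM22 inhibitor points lie above the PBS points in every construct except for the HaCaT-PIK3CA afatinib array at 6.38, whereas XAF1 points overlap in HaCaT-HRAS and IFI44 points overlap in all 4 constructs.

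The inhibitors were given at different molar doses and are therefore set side by side without a comparison. Over the 4 lines, 29 members were higher with afatinib (median 0.53, 19.0% of all genes higher), 30 with gefitinib (0.54, 19.2%) and 33 with cetuximab (0.43, 14.2%), and 27 members were higher with each of the 3 (12.3% of all genes). TRIM22 rose by 2.19 ± 0.14 SE with afatinib, 2.18 ± 0.15 SE with gefitinib and 1.81 ± 0.14 SE with cetuximab. The 3 contrasts share the PBS arrays. Without the doubted arrays the afatinib count was 32.

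The response differed most in HaCaT-HRAS. With inhibitors, 29 members were higher in HaCaT-Mock (14.5% of all genes higher, 14.2% lower), 24 in HaCaT-EGFR (13.6% and 12.8%), 27 in the PIK3CA line (10.2% and 10.1%) and 15 in HaCaT-HRAS (3.81% and 2.20%). The medians were 0.76, 0.58, 0.52 and 0.31, and none was lower in any line. Without the doubted arrays the HaCaT-HRAS count was 23 at the same median, and it was 9 without HaCaT-HRAS PBS replicate 3. It was 19 without HaCaT-HRAS gefitinib replicates 1 and 2 and HaCaT-PIK3CA afatinib replicate 1, 3 in batch J and 8 without a batch term, and the HaCaT-PIK3CA count was 12 with only the groups compared. By inhibitor, HaCaT-HRAS had 16 members higher with afatinib (3.35% of all genes), 16 with gefitinib (8.18%) and 4 with cetuximab (0.147%), which became 21, 17 and 9 without the doubted arrays and 23, 12 and 12 without the 3 arrays just named. DUSP6 fell by 2.24 with inhibitors over the 4 lines and by 0.59 in HaCaT-HRAS.

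Tested directly, the inhibitor response was smaller in HaCaT-HRAS than in HaCaT-Mock for 17 members (4.70% of all genes) and larger for 2 (4.83%). XAF1 went from 4.46, 4.51 and 4.86 to 5.82 to 6.97 in HaCaT-Mock, but from 4.89, 4.48 and 5.23 to 4.77 to 5.63 in HaCaT-HRAS, where the groups overlap. Its response was smaller by a difference of -1.70 ± 0.29 SE (adjusted p = 3.57e-05). SAMD9L went from 5.14, 5.18 and 5.26 to 6.56 to 7.37 in HaCaT-Mock and from 4.63, 4.70 and 4.91 to 4.92 to 5.39 in HaCaT-HRAS, with a response difference of -1.61 ± 0.23 SE (adjusted p = 1.2e-06). The larger responses were those of HERC5 (0.58 ± 0.14 SE) and RIGI (0.28 ± 0.08 SE), a count near the share of all genes. Members higher in all 4 lines numbered 12 (2.63% of all genes), namely IRF1, IRF9, UBE2L6, MX1, IFIT1, IFIT2, IFIT3, IFI35, TRIM22, EPSTI1, PARP14 and CMPK2.

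In HaCaT-EGFR only MX1 had a response called different from that of HaCaT-Mock (0.0455% of all genes lower, 0.0253% higher). MX1 rose from 5.59, 5.24 and 5.50 to 6.86 to 7.61 in HaCaT-Mock, and from 5.60 and 5.85 to 6.26 to 6.57 in HaCaT-EGFR. The response difference of -1.11 ± 0.24 SE had an adjusted p of 0.046. That call was lost in batch J, without a batch term, with batch as a random block, with the replicate block (adjusted p = 0.0526) and in most fits that left out 1 array, whereas array weights called 9 members. Without the doubted arrays 2 members were called. In HaCaT-PIK3CA, limma called no member's response different from HaCaT-Mock (0.0253% of all genes higher and 0.116% lower), with 4 members at an unadjusted p under 0.05. The share of all genes at that unadjusted p is not given here, so the 4 are not a result about the members. Other tools were not run.

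Under PBS the constructs themselves differed. In HaCaT-HRAS, 15 members were lower than in HaCaT-Mock and none was higher, with a median of -0.30, while 9.34% of all genes were lower and 6.74% higher. IFI44, an interferon-induced protein with a GTP-binding motif, had values of 4.97, 5.32 and 4.53 in HaCaT-HRAS and 7.95, 7.80 and 7.51 in HaCaT-Mock, without overlap. Its difference was -2.76 ± 0.13 SE, 0.148-fold (adjusted p = 5.94e-24). HERC5, the ligase that attaches ISG15, had values of 4.75, 4.86 and 4.57 against 7.32, 7.12 and 6.65, a difference of -2.39 ± 0.12 SE (0.19-fold). OASL was lower by a difference of -1.62, DDX60, a helicase that assists RNA sensing, by -1.46, TRIM22 by -1.42, CMPK2 by -1.34 and ISG15 by -1.22. MX2 (0.00) and IFI44L (0.03) had the differences nearest 0. Their mean signals over the HaCaT construct arrays were as low as those of leukocyte markers, so no change cannot be told apart from lack of detection. DUSP6 was higher in HaCaT-HRAS by 0.97 ± 0.22 SE.

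The scramble arrays, which share no array with the PBS contrast, gave a second look at the same lines. There, 14 members were lower in HaCaT-HRAS (7.93% of all genes) and 3 higher (6.96%). The 12 members lower in both were ISG15, HERC5, MX1, IFI44, IFI6, IFI35, OASL, TRIM22, RSAD2, DDX60, EPSTI1 and CMPK2, which is 12 of 15 under PBS and 12 of 14 under scramble, and 6.05% of all genes were lower in both. IFI44 scramble values were 5.14, 5.21 and 4.81 in HaCaT-HRAS and 7.75, 7.60 and 7.33 in HaCaT-Mock (difference -2.51 ± 0.13 SE). OAS1, which makes the activator of RNase L (0.54), USP18 (0.43) and IFIT5 (0.20) were higher, a count near the share of all genes. Of the 17 members with a smaller inhibitor response in HaCaT-HRAS, 5 were also lower under PBS (MX1, IFI6, TRIM22, RSAD2 and CMPK2) and 12 were not called there. Both contrasts use the PBS arrays of these lines with opposite sign, so this split is not independent of them. The share of all genes with either pattern was not determined.

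**Figure D3:**
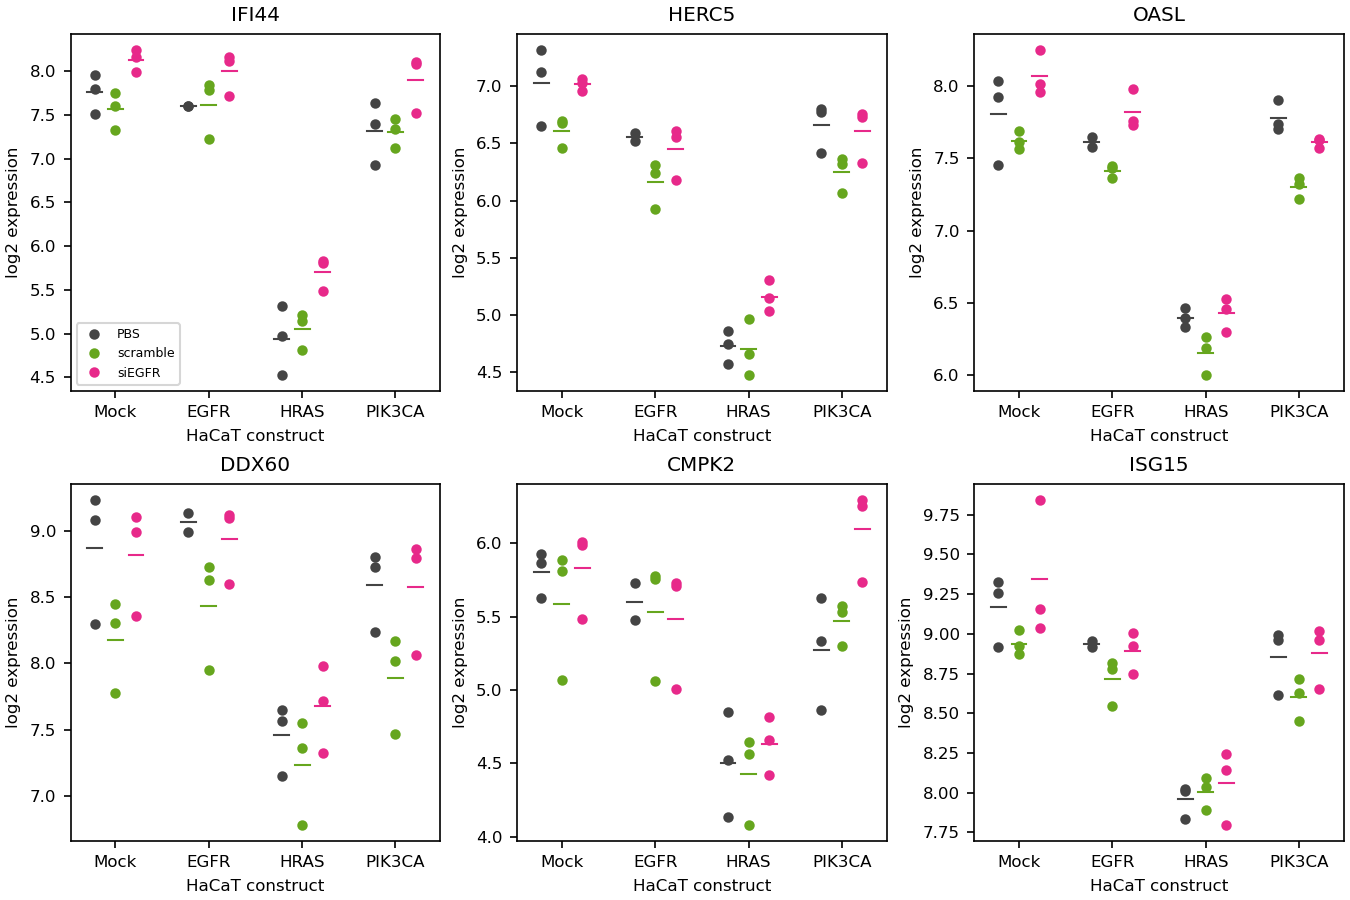
Log2 expression (vertical axes) of IFI44, HERC5, OASL, DDX60, CMPK2 and ISG15 on each PBS, scramble siRNA and siEGFR array of the 4 HaCaT constructs (horizontal axes), 1 point per array with a bar at each group mean. In HaCaT-HRAS the IFI44 points lie between 4.53 and 5.83, below all points of the other constructs.

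Differences of HaCaT-EGFR and HaCaT-PIK3CA from HaCaT-Mock were few. Under PBS, HERC5 (-0.64 ± 0.14 SE, adjusted p = 0.0078) and RIGI (-0.38 ± 0.08 SE, adjusted p = 0.00627) were lower in HaCaT-EGFR and none was higher (0.349% of all genes in each direction). HERC5 was also the 1 member lower in HaCaT-EGFR under scramble (-0.45 ± 0.12 SE), where 0.571% of all genes were lower and 1.81% higher. The HERC5 call under PBS was lost without a batch term, with only the groups compared and without HaCaT-EGFR PBS replicate 1 or 2 or HaCaT-Mock PBS replicate 1. Under scramble it was lost in batch J, without a batch term and in 5 of 6 fits that left out 1 array. Without the doubted arrays, 1 member was higher and 3 lower under PBS, and 1 higher and 2 lower under scramble. TRIM22 was at 7.05 and 7.34 in HaCaT-EGFR, above all HaCaT-Mock PBS arrays, but its difference of 0.75 had an adjusted p of 0.39. In HaCaT-PIK3CA, limma called no member under PBS (0.0405% of all genes higher, 0.121% lower) or under scramble (0.0202% higher, 0.0101% lower), with 8 and 7 members at an unadjusted p under 0.05. These shares are at the adjusted threshold. The share of all genes at the unadjusted p is not given here, so the 8 and 7 are not a result about the members.

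Knockdown of EGFR also raised members of the family. With siEGFR against scramble over the 4 lines, 25 members were higher and 1 lower, with a median of 0.28, while 14.2% of all genes were higher and 14.1% lower. By line, 14 members were higher in HaCaT-PIK3CA (6.02% of all genes), 13 in HaCaT-Mock (5.45%), 10 in HaCaT-EGFR (4.75%) and 7 in HaCaT-HRAS (3.60%). Without the doubted arrays these counts were 18, 19, 14 and 13, at unchanged medians, so the order of the lines in these counts is not settled. TRIM22 values in HaCaT-Mock were 5.94, 6.10 and 5.63 with scramble and 7.06, 6.87 and 6.80 with siEGFR, and its difference over the 4 lines was 1.03 ± 0.14 SE (adjusted p = 2.68e-08). EPSTI1 rose by 0.79, IRF9 and IFIT1 by 0.61 each, DDX60 by 0.57 and IFI44 by 0.55. IFIT5, an RNA-binding relative of IFIT1, was the member that fell (-0.11 ± 0.04 SE).

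IRF1 rose with the inhibitors and was not called with the knockdown. Its scramble values over the 12 arrays of the 4 lines ran from 7.71 to 7.96 and its siEGFR values from 7.63 to 7.99, a difference of 0.01 ± 0.08 SE (adjusted p = 0.944). XAF1 likewise had -0.06 ± 0.13 SE (adjusted p = 0.8). The siEGFR response was smaller than the inhibitor response for 25 members (13.8% of all genes) and larger for 3 (13.0%). The differences between responses were -1.25 ± 0.17 SE for XAF1, -1.22 ± 0.11 SE for IRF1, -1.10 ± 0.15 SE for IFIT3 and -1.03 ± 0.18 SE for TRIM22. IFI44 (0.39), DDX60 (0.35) and HERC5 (0.24) had the larger siEGFR response, but the IFI44 value rests on its probe set, since a second probe set gave -0.42. The 6 members that rose with inhibitors, were not called with siEGFR and had a called difference between both were IRF1, IFIH1, IFI44L, IFI27, OAS2 and XAF1 (6.07% of all genes). DUSP6 fell by 1.07 with siEGFR.

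**Figure D4:**
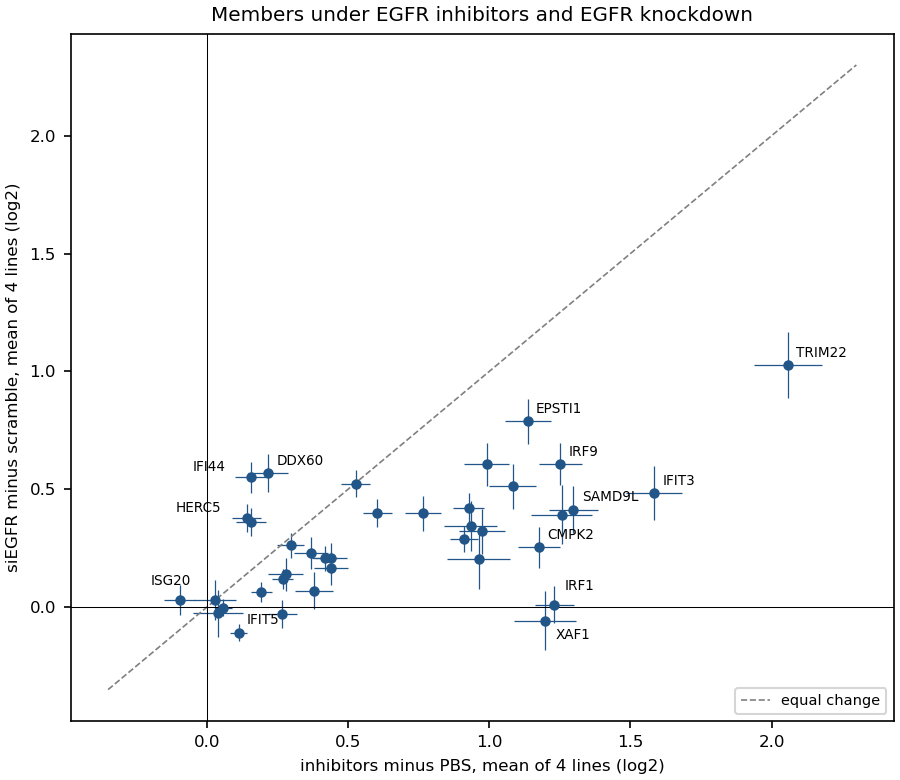
Log2 difference with siEGFR against scramble (vertical axis) over the log2 difference with inhibitors against PBS (horizontal axis), each over the 4 lines, with 1 point per member, SE bars and a dashed line of equal change. IRF1 and XAF1 lie near 0 on the vertical axis at 1.23 and 1.20 on the horizontal axis, and IFI44, DDX60 and HERC5 lie above the line.

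Scramble siRNA cells also differed from PBS cells. Over the 4 lines, 9 members were lower with scramble siRNA and 3 higher (13.5% of all genes lower and 13.6% higher). The 3 members higher were below the share of all genes. DDX60 (-0.54), TRIM22 (-0.51), IFIT2 (-0.47) and EPSTI1 (-0.45) were lower, and IFIT5 (0.31), TRIM21, a cytosolic antibody receptor (0.21), and RIGI (0.14) were higher. With scramble siRNA present, inhibitors raised 25 members over the 4 lines (10.3% of all genes) and 28 over the 3 lines other than HaCaT-Mock, whose scramble-with-PBS array is in doubt (12.4%). In those 3 lines TRIM22 rose by 2.09 and IFIT3 by 1.57. Scramble with PBS against PBS alone raised 10 members over the 4 lines (2.16% of all genes), and 2 over the 3 lines (2.31%), namely RSAD2, an antiviral radical enzyme also called viperin (0.50), and TRIM21 (0.23). Over the 3 lines without the doubted arrays, 4 were higher and 2 lower.

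The carcinoma lines spanned a wider range. The mean over the members was 6.39 and 6.44 on the SCC1 arrays and 8.19 and 8.32 on the SCC25 arrays, against 6.92 to 7.04 in HaCaT-Mock with PBS. SCC25 had 29 members higher and 3 lower than HaCaT-Mock (19.5% and 22.7% of all genes), and SCC1 had 8 higher and 18 lower (19.9% and 17.5%). The HaCaT-Mock cells received PBS and carry the vector, and the carcinoma lines had neither per the labels. KRT14 was lower than in HaCaT-Mock by a difference of -3.03 in SCC1 and higher by 0.89 in SCC25. Directly compared, 30 members were lower in SCC1 than in SCC25 (19.3%) and 3 higher (23.3%).

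IFI27, a mitochondrial and nuclear envelope protein, was at 11.48 and 11.60 in SCC25, against 5.19, 5.07 and 5.34 in HaCaT-Mock, 5.10 and 5.06 in SCC1, 8.81 in FaDu, 9.02 in FaDu with PBS and 5.19 in parental HaCaT. The SCC25 difference from HaCaT-Mock was 6.34 ± 0.17 SE (adjusted p = 4.48e-37). IFI44L was at 8.54 and 8.17 in SCC25 against 3.64, 3.51 and 3.61 in HaCaT-Mock and 3.58 and 3.75 in SCC1 (SCC25 difference 4.80). BST2, called with inhibitors in none of the 4 HaCaT lines, was at 8.52 and 8.29 in SCC25 and at 4.72, 5.25 and 4.70 in HaCaT-Mock (difference 3.56). The deposited values carry no detection calls, and the HaCaT-Mock signals of these 3 probe sets were about as low as the leukocyte marker means (3.61 to 5.27), so the true differences may be larger. XAF1 (3.50) and IRF9 (2.66) were also higher in SCC25, and MX1 (-1.47), EPSTI1 (-0.68) and IFIT5 (-0.49) were the members lower there.

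SCC1 carried a mixed profile. IFI44 was at 4.05 and 3.83 there and 9.20 and 8.68 in SCC25, against 7.95, 7.80 and 7.51 in HaCaT-Mock. SCC1 was lower than HaCaT-Mock by a difference of -3.70 for IFI44, -3.07 for DDX60, -2.95 for IFIT1, -2.79 for OASL and -2.44 for IFIT2. MX1, however, was at 7.02 and 7.06 in SCC1 and at 3.85 and 4.22 in SCC25, and was higher in SCC1 than in HaCaT-Mock by 1.54 ± 0.22 SE. USP18 (1.54) and HERC5 (1.22) were higher as well. The count of 8 members higher in SCC1 was near the share of all genes (19.9%). Of the 8 members higher in SCC1, 7 were higher in SCC25 too (8.03% of all genes were higher in both), MX1 being the exception, and 13 members were lower in SCC1 and higher in SCC25 (3.45% of all genes).

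The single arrays of FaDu and parental HaCaT allow no test. In FaDu, 26 members lay above and 8 below all HaCaT-Mock PBS arrays, and in FaDu with PBS, which was the only array of batch P and was kept out of the models, 28 lay above and 7 below. In parental HaCaT, 30 lay above and 4 below, with a member mean of 7.56. The share of all genes outside the HaCaT-Mock range was not determined, so these counts cannot be read as particular to the members. These values are not corrected for batch, and parental HaCaT and FaDu were in batch M while the HaCaT-Mock PBS arrays were in batches J and E. Vector, PBS treatment and batch cannot be told apart here.

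**Figure D5:**
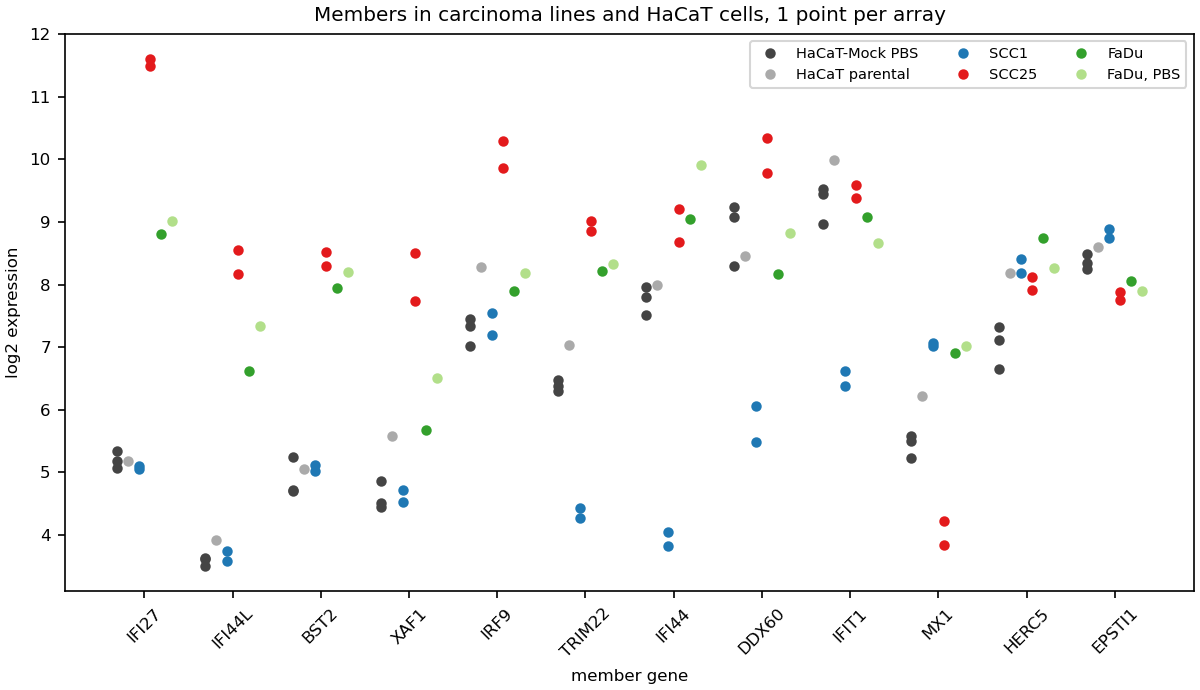
Log2 expression (vertical axis) of 12 members (horizontal axis) on each array of HaCaT-Mock with PBS, parental HaCaT, SCC1, SCC25 and FaDu, 1 point per array. SCC25 is highest for IFI27 and IFI44L, and MX1 is at 7.02 and 7.06 in SCC1 but at 3.85 and 4.22 in SCC25.

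Members varied together to different degrees. Over the 40 group means of the HaCaT construct arrays, which share lines, batches and controls, the correlation of a member with the mean of the others was highest for IRF9 (0.97), CMPK2 (0.95) and OAS2 (0.94). It was lowest for ISG20 (-0.51), IFIT5 (-0.22) and RIGI (0.06). Of the probe sets, 28 members had a mean signal of at least 6.10, the median gene's mean, and 18 members had only 1 probe set. Among the 20 members with several, another probe set had the opposite sign, whatever its size, for 7 in HaCaT-HRAS against HaCaT-Mock under PBS. That number was 1 for inhibitors over the 4 lines, 6 for siEGFR against scramble and 8 for scramble against PBS.

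The rest of the pathway was read from lists of its ligands, receptors, sensors, regulators and interferon-gamma targets, against 19.8% of all genes higher and 19.4% lower with inhibitors over the 4 lines. Of 11 interferon ligands, whose means were between 3.25 and 4.33, as low as the leukocyte markers, 1 was called higher and 1 lower, not above the shares of all genes. Of 10 receptors and kinases, 7 were higher, among them the receptor subunit IL10RB (0.57), STAT3 (0.46) and the kinase JAK1 (0.42). Of 10 sensing genes, 6 were higher, led by TLR3, a receptor for double-stranded RNA (1.46 ± 0.09 SE), and 1 was lower, the DNA sensor CGAS (-0.48). Of 6 regulators, IRF2 (0.26) and PIAS1 (0.07) were higher, a list too short to set against the share of all genes. Of 11 targets of interferon-gamma, 5 were higher, with the GTPases GBP2 at 1.86 ± 0.10 SE and GBP1 at 1.42 ± 0.11 SE, and 3 were lower.

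The chemokines CXCL9, CXCL10 and CXCL11, which attract T cells and are targets of interferon-gamma, went against the members in HaCaT-EGFR. CXCL10 was at 6.37 and 6.20 with PBS in that line and at 4.16 to 4.88 with inhibitors. Under PBS, CXCL9, CXCL10 and CXCL11 were higher in HaCaT-EGFR than in HaCaT-Mock by 2.01, 1.73 and 1.31, and the tryptophan-degrading enzyme IDO1 by 0.67. With inhibitors in HaCaT-EGFR the differences were -1.87, -1.75 and -1.23 for the chemokines and -0.92 for IDO1, in the line where 24 members rose and none fell. Both contrasts share the HaCaT-EGFR PBS arrays.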

How the data were processed

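Total RNA from HaCaT construct lines and carcinoma lines was hybridised to Affymetrix U133 Plus 2.0 arrays (96 arrays). The authors deposited a table of log2 expression values for 54675 probe sets. Per the study's methods arrays were normalized with fRMA and batch-corrected with pSVA, and affy is named in the submitters' processing notes, but the sources used here do not say which of these steps the deposited table holds. The authors' values ran from 2.65 to 14.5, with array medians of 5.08 to 5.18. The number of arrays limits the precision.

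Probe sets were named from GEO's platform annotation (41091 with 1 symbol, 1801 with several, 11777 not listed), and the brightest on average over 89 HaCaT construct arrays was kept per gene. limma 3.58.1 (R 4.3.3) fitted group means and batch over those arrays (residual df 47) or over 95 with the carcinoma lines (49), with Benjamini-Hochberg adjustment over 19775 genes and a threshold of 0.05. The FaDu array with PBS was not fitted. Genes were named by a rule of at most the 5 largest called rises, the 5 largest called falls and the 5 members nearest 0 in each contrast, besides the pathway and marker lists, and other members were named by role after their values were seen. Members, lists and tests were chosen with earlier results of these data known. Scripts were tested on simulated data. Alternatives changed the probe-set rule, the low-signal filter, the batch term, scaling, array weights, the groups fitted, the replicate block and the arrays included. Replicate numbers in the labels were checked as pairs (190 pairs over 20 groups, correlations of deviations -0.21 to 0.22) and did not pair arrays.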

Additional observations from a re-analysis of the deposited data

Results flagged for a closer look

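The inhibitor response of a construct line was compared with that of HaCaT-Mock by an interaction term in limma, and each gene of the lists with an adjusted p under 0.05 is given here as the response of the construct line minus that of HaCaT-Mock (log2). All comparisons share the HaCaT-Mock arrays. No group had over 3 arrays, so single arrays were not screened within groups for this list. The doubted arrays were singled out earlier by the mean of the members and by DUSP6.

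In HaCaT-HRAS the response was smaller for XAF1 (-1.70), SAMD9L (-1.61), MX1 (-1.27), RSAD2 and OAS1 (-1.23 each), TRIM22 (-1.05), PARP9 (-1.03), IRF9 (-1.02), OAS2 (-0.997), SAMD9 (-0.90), IFI6 (-0.79), IRF1 (-0.71), PARP14 (-0.69), IFI27 (-0.65), CMPK2 (-0.62), UBE2L6 (-0.45) and OAS3 (-0.34). It was larger for HERC5 (0.58) and RIGI (0.28). Among the interferon-gamma targets it was smaller for GBP2 (-1.15), GBP1 (-0.96) and CXCL9 (-0.71).

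In HaCaT-EGFR the response was lower for CXCL9 (-2.32), CXCL10 (-2.19), CXCL11 (-1.70) and IDO1 (-0.88), genes that started higher in that line, and for 1 member, MX1 (-1.11), whose call was lost in batch J, without a batch term, with batch as a random block, with the replicate block and in 19 of 23 fits that left out 1 array.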

How the results depend on the processing

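Counts of members called in either direction kept within 1.5 times of the value with all arrays and settings as reported, except as follows. For HaCaT-EGFR against HaCaT-Mock under PBS (2), the count was 1 with the study's deviation rule for probe sets, 1 in batch J alone, 0 without a batch term, 0 with only the groups compared, 8 with array weights and 4 without 3 arrays (HaCaT-HRAS gefitinib replicates 1 and 2 and HaCaT-PIK3CA afatinib replicate 1). Under scramble (1) it was 2 for genes at or above the median, 0 in batch J, 0 without a batch term, 2 with only the groups compared, 5 with array weights, 4 without the 3 arrays and 3 after quantile scaling. The HaCaT-EGFR response against that of HaCaT-Mock (1) was 0 for genes at or above the median, in batch J, without a batch term, with batch as a random block and with the replicate block, 6 with only the groups compared, 9 with array weights and 3 without the 3 arrays. For HaCaT-PIK3CA, where none was called, array weights gave 7 under PBS, 1 under scramble and 1 for the response, and leaving out the 3 arrays gave 1 under PBS. Inhibitors in HaCaT-HRAS (15) gave 3 in batch J and 8 without a batch term, and in HaCaT-PIK3CA (27) gave 12 with only the groups compared. The HaCaT-HRAS response (19) gave 9 and 11, HaCaT-HRAS under scramble (17) gave 10 and 10, in batch J and without a batch term, and scramble against PBS (12) gave 6 in batch J. The cause was not tested. Batch J holds fewer arrays. No value could be had in batch J for inhibitors with scramble over the 4 lines.

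Leaving out 1 array at a time gave 0 to 2 members for HaCaT-EGFR under PBS, 0 to 1 under scramble and 0 to 1 for its response. It gave 0 to 1 for the HaCaT-PIK3CA response, 9 to 20 for inhibitors in HaCaT-HRAS (9 without HaCaT-HRAS PBS replicate 3), 13 to 21 for the HaCaT-HRAS response and 11 to 15 for HaCaT-HRAS under scramble (11 without HaCaT-HRAS scramble replicate 1 or 2, or HaCaT-Mock scramble replicate 2).

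IFI44 reversed: its siEGFR response minus its inhibitor response was 0.39, and -0.42 with the probe set the study's deviation rule picks. With the replicate number as a block, 20 of 21 counts stayed within 1.5 times, the exception being the HaCaT-EGFR response (0 members), and 100 of 102 differences of named members kept their call. The call of a named member was lost for 19 of 97 differences in batch J, 15 of 102 without a batch term, 6 with only the groups compared, 4 with the deviation rule, 2 with batch as a random block and 45 of 1785 when 1 array was left out, and for 0 of 102 with array weights, without the 3 arrays or after quantile scaling. The alternatives with 3 lines, and without the doubted arrays, were chosen after the data were seen.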

Other observations

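Genes outside the list that followed the mean of the members most closely over the 40 HaCaT construct group means were FSTL1, a secreted glycoprotein (r = 0.96), PLAAT4, a retinoid-induced phospholipase (0.95), MATN2, ALPP, RHBDL2, DTX4, ZNF362 and ACAA2. The group means share lines, controls and batches, so these correlations are a description with no test.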
